A study of Mus musculus with 4 samples.

Results

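The JNK and p38 kinase cascade was followed here through 10 genes: Mapk8, Mapk9, Mapk10, Mapk14, Map2k4, Map2k7, Map3k5, Mapk8ip1, Atf2 and Elk1. They were chosen by symbol, as kinases, a scaffold and nuclear targets of these cascades, and each was matched to 1 of the 23420 genes in the deposited tables. The values came from sensory hair cells and non-hair cells of cochleae of postnatal day 1 mice that carried the Atoh1-GFP transgene on a CD1 background. The transgene, driven by sequences of the hair cell gene Atoh1, marks hair cells with GFP. Cochleae were kept in organ culture overnight at low oxygen, with penicillin in the medium of all 4 groups, and then either left without gentamicin (control) or treated with 0.5 mM gentamicin, an aminoglycoside antibiotic that kills hair cells, for 3 h. GFP-positive cells (HC) and GFP-negative cells (NHC) were sorted from both kinds of culture, which gave 4 groups with 3 replicates each. The NHC population is a mixture of supporting cells, other cells of the cochlear epithelium and cells of the surrounding tissue. The levels are from poly(A) RNA of these sorted cells, so fewer cells of one type and less RNA per cell cannot be told apart.

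JNK and p38 are stress-activated MAP kinases. A MAP3K such as ASK1, the product of Map3k5, phosphorylates the MAP2Ks MKK4 and MKK7, encoded by Map2k4 and Map2k7. These phosphorylate JNK, encoded by Mapk8, Mapk9 and Mapk10, and MKK4 can also act on p38α, encoded by Mapk14. JIP1, the product of Mapk8ip1, is a scaffold that holds kinases of the JNK cascade together. Activated kinases phosphorylate transcription factors, among them ATF2, ELK1 and c-Jun, and JNK signalling has long been studied in aminoglycoside damage of hair cells. The cascade works by phosphorylation, which RNA levels do not measure.

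The promoters of the JNK genes are shown because ATF2 and Jun family proteins, the nuclear targets of this kinase, are known to bind the motifs searched here. RefSeq (GRCm38.p6) gave 14 promoters for 9 of the 10 genes, each running from 250 bases before to 50 bases after a transcription start. The letters searched on both strands were the cAMP response element TGACGTCA, its half-site TGACG, which every full element contains, and TGANTCA. The last is a loose form of the AP-1 element, in which N is any base. The first promoter of each JNK gene is printed with its matches in capitals, where CGTCA is the half-site on the opposite strand. They lie at chr14:33447109-33447408 on the minus strand (Mapk8), chr11:49846501-49846800 on the plus strand (Mapk9) and chr5:103211285-103211584 on the minus strand (Mapk10).
Mapk8: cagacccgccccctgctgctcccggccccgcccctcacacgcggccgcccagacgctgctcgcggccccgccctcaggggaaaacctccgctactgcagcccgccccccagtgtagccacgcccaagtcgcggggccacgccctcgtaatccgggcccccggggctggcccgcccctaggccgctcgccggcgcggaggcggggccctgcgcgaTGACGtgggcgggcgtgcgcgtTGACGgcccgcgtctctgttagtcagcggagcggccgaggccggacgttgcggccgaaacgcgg
Mapk9: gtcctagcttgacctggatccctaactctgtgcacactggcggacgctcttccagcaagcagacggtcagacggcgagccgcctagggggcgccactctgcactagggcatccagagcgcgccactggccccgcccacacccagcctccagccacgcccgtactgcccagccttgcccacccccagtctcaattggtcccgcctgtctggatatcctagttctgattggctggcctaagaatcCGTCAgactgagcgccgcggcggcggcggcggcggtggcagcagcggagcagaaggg
Mapk10: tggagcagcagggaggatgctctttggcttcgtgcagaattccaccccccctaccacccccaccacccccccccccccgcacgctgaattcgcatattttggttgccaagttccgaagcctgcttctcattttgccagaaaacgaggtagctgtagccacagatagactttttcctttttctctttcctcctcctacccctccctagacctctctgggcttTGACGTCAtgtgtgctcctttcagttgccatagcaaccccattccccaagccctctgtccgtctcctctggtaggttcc
The Mapk8 promoter holds 2 half-sites, the Mapk9 promoter holds 1, and the Mapk10 promoter holds the full element. The full element was found in 1.79% of 32851 promoters and in no other promoter of the 9 genes. The half-site was found in 20.8% of promoters and in 4 of the 14, 1 each of Mapk8, Mapk9, Mapk10 and Map2k4. The loose AP-1 letters were found in 7.81% of promoters and in 1 of the 14, which belongs to Map2k7 and reads TGATTCA there.

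Reads on genes numbered 22400552 to 28152183 per replicate, with a median of 25116516. All 10 genes had enough reads to be tested, with 16077 genes tested in all. The sort was checked with 7 hair cell markers, whose summed normalized read number was 10681–11110 in HC control, 8960–9951 in HC gentamicin and 229–301 over the 6 NHC replicates. No marker of any list was without reads in a whole group. Summed markers of supporting cells, 7 genes, were lower in gentamicin-treated HC (749–1243) than in HC control (1508–1731), where the 6 NHC replicates ranged over 415–1147. Summed mesenchyme markers, 6 genes, were 107–159 in HC gentamicin and 193–472 in HC control, with the highest value in replicate 2, against 5110–9370 in NHC. Summed markers of glia, 6 genes, were 116–194 in HC gentamicin and 227–280 in HC control, and those of endothelium, 5 genes, 6.60–11.5 and 12.3–21.1. Macrophage markers, 5 genes, summed to at most 5.35 in any HC replicate, and blood markers, of which 3 of 5 were in the tables, to at most 13.9. The part that these shifts played in the results below was not tested.

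In hair cells, Mapk8, Map3k5 and Atf2 rose and Mapk8ip1 and Elk1 fell after 3 h of gentamicin. The call followed the criteria of the study. It asked for an unadjusted limma p below 0.01 together with more than a 1.2-fold difference, up or down. By this rule 5 of the 10 genes changed in hair cells, 3 up and 2 down, where 27.5% of all genes tested changed, 12.7% up and 14.8% down. In 8 of the 10 genes the treated and control replicates did not overlap, which was so for 54.8% of all genes. The median log2 fold change of the 10 genes was -0.14, beside -0.09 over all genes tested. In non-hair cells 0 of the 10 genes changed by the same rule, where 5.44% of all genes did. There 3 of the 10 had an unadjusted p under 0.05 in limma, namely Mapk8, Map3k5 and Mapk8ip1, as did 2753 of the 16077 genes tested. The NHC replicates did not overlap in 3 of the 10 genes, which was so for 17.8% of all genes. The 3 changed genes that rose, together with Elk1, were at a lower level in HC control than in NHC control, while Mapk8ip1 was at a level that did not differ beyond its spread.

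**Figure D1:**
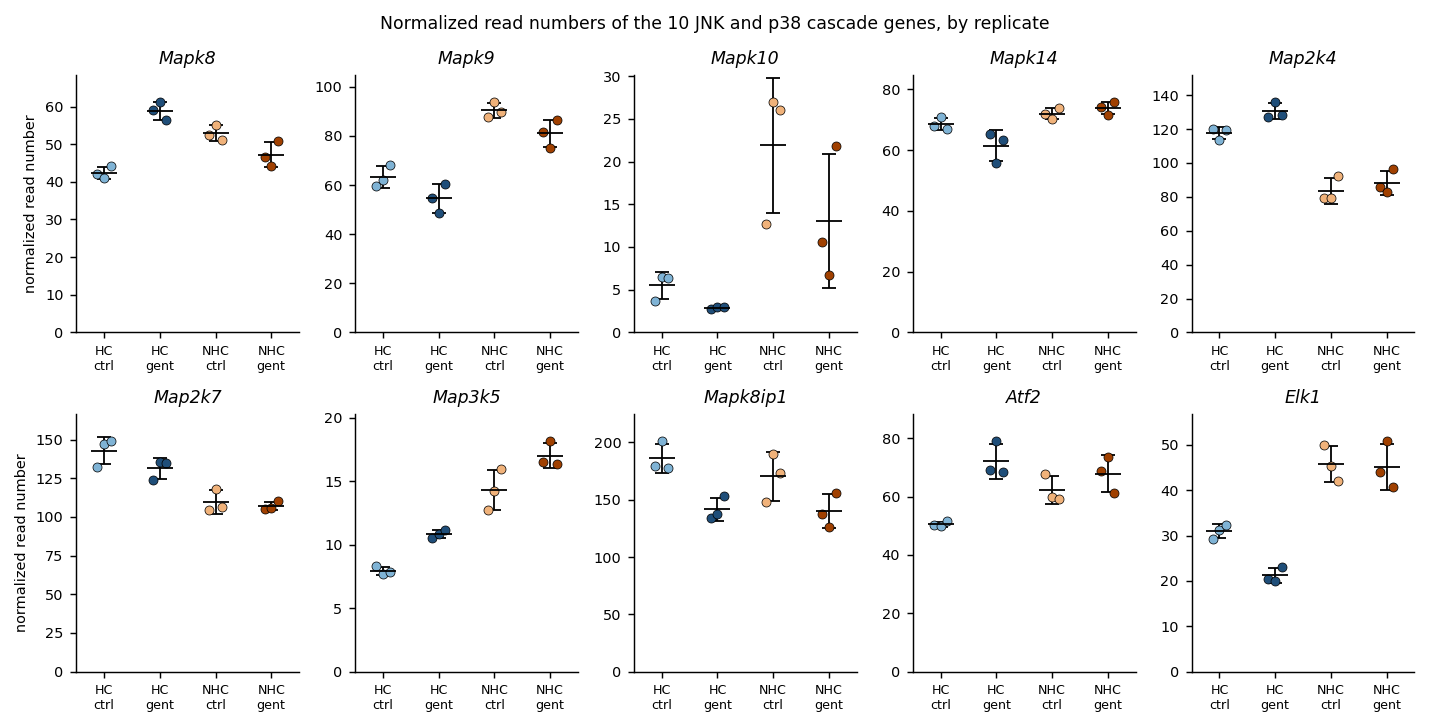
Normalized read number (vertical axis, linear, from 0) of each of the 10 genes in the 3 replicates (points) of HC control, HC gentamicin, NHC control and NHC gentamicin. Horizontal bars mark the mean and vertical bars the SD over 3 replicates. The treated hair cells do not overlap with their controls for 8 of the 10 genes, all but Mapk9 and Map2k7, while Mapk10 spreads widely in NHC.

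Among the JNK genes, Mapk8, which encodes JNK1 (chromosome 14, 33377898–33447158), had normalized read numbers of 42.0, 41.0 and 44.2 in HC control and 59.2, 61.2 and 56.3 in HC gentamicin. In NHC the replicates read 52.4, 55.2 and 51.1 in control and 46.6, 44.2 and 50.9 after gentamicin. Treated hair cells were higher than every other replicate, and control hair cells were lowest, with the highest of them level with the lowest treated NHC replicate. In hair cells the log2 fold change was 0.47 (SE 0.07, limma adjusted p = 6.40e-04), and it lay between 0.45 and 0.51 in the 6 fits that left out 1 HC replicate, all of which kept the call. In NHC the treated replicates were all below the controls, with a log2 fold change of -0.16 (SE 0.07, limma adjusted p = 0.267).

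Mapk9, which encodes JNK2 (chromosome 11, 49846751–49886421), had normalized read numbers of 59.7, 61.9 and 68.3 in HC control and 54.9, 48.7 and 60.3 in HC gentamicin. The highest treated replicate lay just above the lowest control. The log2 fold change was -0.22 (SE 0.09, limma adjusted p = 0.0810), and without HC gentamicin replicate 3 it was -0.29 and met the criteria. In NHC the control replicates read 87.5, 93.8 and 89.9 and the treated ones 81.6, 75.3 and 86.4, with no overlap and a log2 fold change of -0.16 (SE 0.09, limma adjusted p = 0.378).

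Mapk10, which encodes JNK3, the form known best from neurons (chromosome 5, 102907948–103211334), was the scarcest of the JNK genes, with 43–129 reads per HC replicate. Its normalized read numbers were 3.69, 6.53 and 6.34 in HC control and 2.77, 2.92 and 3.00 in HC gentamicin. All treated replicates were below all controls. The SD was 28.7% of the mean in HC control and 3.94% in HC gentamicin, against 36.3% in NHC control and 60.3% in NHC gentamicin. In the model of all 4 groups, which share 1 estimate of the spread, the log2 fold change of -0.88 (SE 0.41, limma adjusted p = 0.118) did not pass. It passed where the HC groups were fitted alone (limma adjusted p = 0.0169). In NHC the values were 12.7, 26.9 and 26.0 in control and 10.6, 6.67 and 21.8 after gentamicin, so the groups overlapped (log2 fold change -0.84, SE 0.41, limma adjusted p = 0.317). Without NHC gentamicin replicate 3 that value was -1.30 and met the criteria.

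The Mapk10 values moved with neuron markers across the NHC replicates. The summed normalized read number of 8 neuron markers was 697, 1721 and 1627 in NHC control and 707, 343 and 1256 in NHC gentamicin, and Mapk8ip1 read 148, 190 and 173 in NHC control and 138, 126 and 156 in NHC gentamicin. Both genes rank the 6 NHC replicates as the neuron sum does, except that the first control replicate lay above the first treated replicate while its sum was slightly lower. Other genes of the 10 followed the sum as well. In the treated NHC replicate with the lowest sum, Mapk8 and Mapk9 were at their lowest NHC levels and Atf2 and Elk1 at their highest. Atf2 was also higher in the first replicate of both NHC groups, where the sums were 697 and 707, than in the 3 replicates with the highest sums. In hair cells the 8 markers summed to 1180–1359 in control and 1131–1266 after gentamicin, but most of that sum came from the neurofilament gene Nefm. As Mapk10 was, 5 of the 8 were lower in treated hair cells without overlap, namely Tubb3 (15.9–30.6 in control and 11.1–14.2 after gentamicin), Stmn2 (16.4–28.8 and 6.94–11.02), Elavl4 (9.25–25.7 and 6.02–7.24), Prph (3.17–7.07 and 1.59–2.75) and Nefl (312–365 and 249–270). The others overlapped, namely Nefm (632–748 and 653–786), Snap25 (49.3–58.8 and 44.6–58.5) and Isl1 (104–128 and 115–148). Over all genes tested, 54.8% did not overlap between the hair cell groups, in either direction. The part of the neuron markers in the values of these genes, and in the differences between populations given below, was not tested.

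**Figure D2:**
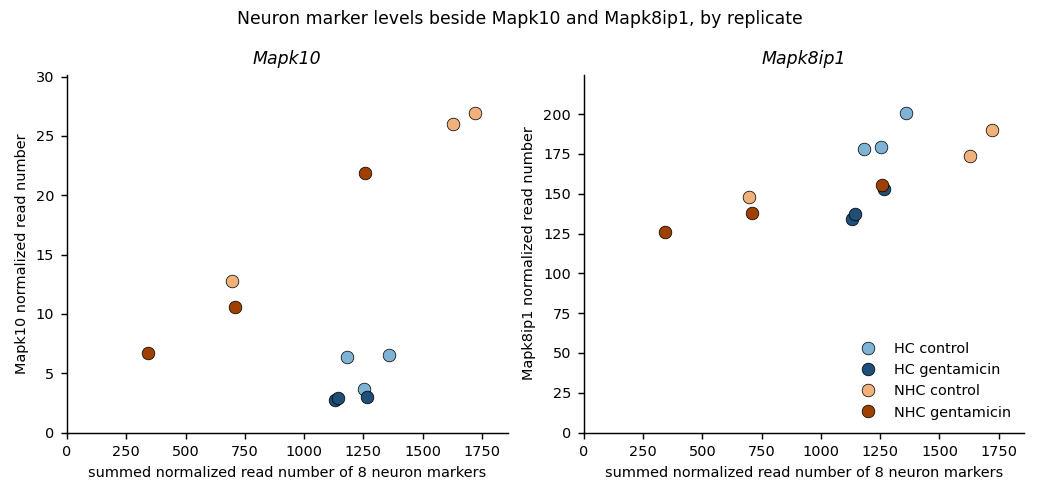
Normalized read number of Mapk10 (left) and Mapk8ip1 (right) on the vertical axes against the summed normalized read number of 8 neuron markers, without the offset of 1, on the horizontal axes, with 1 point per replicate and both axes from 0. Among the 6 NHC replicates Mapk10 ranges from 6.67 where the markers sum to 343 to 26.9 where they sum to 1721, while HC replicates hold less Mapk10 at similar sums. Most of the HC sum is Nefm, so similar sums in HC and NHC need not mean a similar content of neurons.

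Because read numbers grow with transcript length, the JNK genes were also compared per kilobase of exon. As a share of the reads per kilobase of the 3 JNK genes, Mapk8 held 28.7%, 26.97% and 26.6% in HC control and 38.6%, 42.2% and 35.1% in HC gentamicin. Its mean share was 11.2 percentage points higher in treated hair cells, with all treated replicates above all controls. The share of Mapk9 averaged 69.5% ± 0.42 (SD, n = 3) in untreated and 60.1% ± 3.59 (SD, n = 3) in treated hair cells, a difference of -9.44 percentage points. Mapk10 held 3.05% ± 0.99 (SD, n = 3) and 1.30% ± 0.09 (SD, n = 3). In each of these 3 HC comparisons the exact two-sided permutation p was 0.10, the smallest that 3 against 3 replicates allows, and the adjusted value over 9 such tests was 0.18. In NHC the share of Mapk8 averaged 23.2% ± 1.21 (SD, n = 3) without gentamicin and 23.9% ± 0.79 (SD, n = 3) with it, and the replicates overlapped. The Mapk10 share there averaged 9.46% ± 3.20 (SD, n = 3) without gentamicin and 6.15% ± 3.41 (SD, n = 3) with it. Measured on the longest transcript, the mean share of Mapk8 in hair cells was 34.1% in control and 46.3% after gentamicin. Of the 50-base words in the transcripts of each JNK gene, none in Mapk9 or Mapk10 and 0.11% in Mapk8 also occurred in another gene, so reads of these paralogs could be told apart.

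**Figure D3:**
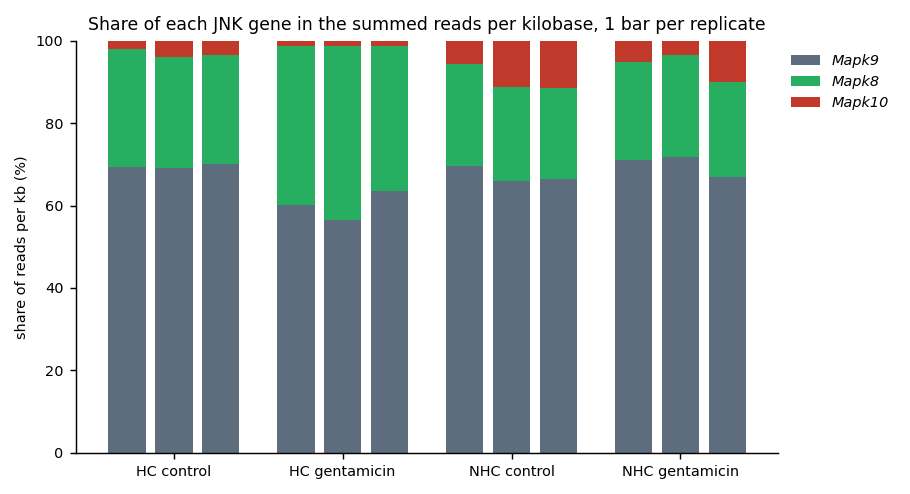
Share (%, vertical axis, from 0 to 100) of Mapk9, Mapk8 and Mapk10 in their summed reads per kilobase of exon, with 1 stacked bar for each of the 3 replicates of the 4 groups. The Mapk8 part is 35.1% to 42.2% in treated hair cells and at most 28.7% in the other groups.

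Mapk14, which encodes p38α (chromosome 17, 28691329–28748406), had normalized read numbers of 67.9, 70.8 and 67.0 in HC control and 65.3, 55.7 and 63.5 in HC gentamicin. All treated replicates were below the controls, but the log2 fold change of -0.16 (SE 0.07, limma adjusted p = 0.0905) did not meet the criteria. In NHC it read 71.9, 70.2 and 73.9 in control and 74.1, 71.7 and 75.8 after gentamicin, a log2 fold change of 0.04 (95% interval -0.11 to 0.19).

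Neither MAP2K gene met the criteria in either population. Map2k4 (chromosome 11, 65688243–65788297) had normalized read numbers of 120, 113 and 119 in HC control and 127, 136 and 128 in HC gentamicin, with all treated replicates above the controls and a log2 fold change of 0.15 (95% interval -0.02 to 0.32). In NHC it read 79.2, 79.0 and 92.3 in control and 85.8, 82.7 and 96.3 after gentamicin (log2 fold change 0.08, 95% interval -0.09 to 0.25). Map2k7 (chromosome 8, 4238740–4247897) read 133, 147 and 149 in HC control and 124, 136 and 135 in HC gentamicin, and the groups overlapped (log2 fold change -0.12, 95% interval -0.27 to 0.04). In NHC its values were 104, 118 and 106 in control and 105, 106 and 110 after gentamicin (log2 fold change -0.03, 95% interval -0.19 to 0.12). Map2k7 is the 1 gene of the 10 whose reads may be shared to a large extent, since 35.2% of its exon bases lie under exons of Gm49320. Of its 50-base words 32.8% occur in that gene, against at most 1.73% in other genes for the other 9. Whether the libraries marked strand is not given.

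Map3k5, which encodes the stress-responsive kinase ASK1 (chromosome 10, 19934472–20142753), rose in hair cells from a low level. It read 8.30, 7.67 and 7.82 in HC control and 10.5, 10.8 and 11.2 in HC gentamicin, with 148–285 reads per replicate. The groups were well apart, and the log2 fold change was 0.45 (SE 0.11, limma adjusted p = 0.00927). It kept the call in all 6 fits that left out 1 HC replicate and lost it when both replicates numbered 2 were left out, a setting chosen after seeing the data (log2 fold change 0.43, limma adjusted p = 0.0883). In NHC the replicates read 12.7, 14.2 and 15.9 in control and 16.5, 18.1 and 16.3 after gentamicin. All treated replicates were above the controls there too, with a log2 fold change of 0.25 (SE 0.11, limma adjusted p = 0.269).

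Mapk8ip1, the gene of the scaffold JIP1 (chromosome 2, 92383676–92401263), had normalized read numbers of 180, 201 and 178 in HC control and 134, 137 and 153 in HC gentamicin. All treated replicates were below the controls. The log2 fold change of -0.40 (SE 0.11, limma adjusted p = 0.0153) met the criteria but was the least stable of the 5. It was -0.34 without HC control replicate 2, -0.36 without HC gentamicin replicate 1 and -0.38 without HC gentamicin replicate 2, and met the criteria in none of these fits. With scaling by total reads it was -0.30 and did not meet them either. In NHC the log2 fold change of the values given above was -0.28 (SE 0.11, limma adjusted p = 0.215), with 1 treated replicate inside the control range. It met the criteria there without NHC control replicate 1 (-0.38) and without NHC gentamicin replicate 3 (-0.36).

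The 2 nuclear targets moved in opposite directions in hair cells. Atf2 (chromosome 2, 73816509–73892639), whose product binds DNA alone or with c-Jun, read 50.2, 49.8 and 51.5 in HC control and 69.0, 78.9 and 68.4 in HC gentamicin. The controls lay close together, below all treated replicates, and the log2 fold change was 0.51 (SE 0.09, limma adjusted p = 0.00139). In NHC the values were 67.8, 59.9 and 59.2 in control and 68.9, 73.5 and 61.2 after gentamicin, and the groups overlapped (log2 fold change 0.12, SE 0.09, limma adjusted p = 0.504). Elk1 (chromosome X, 20933395–20950608), a ternary complex factor that acts with SRF, read 29.3, 31.2 and 32.3 in HC control and 20.5, 20.0 and 23.1 in HC gentamicin. Every treated replicate was below every control, with a log2 fold change of -0.54 (SE 0.10, limma adjusted p = 0.00236). Its NHC values were 50.01, 45.4 and 42.0 in control and 44.0, 50.8 and 40.7 after gentamicin, which overlapped (log2 fold change -0.02, SE 0.10, limma adjusted p = 0.938). Both genes kept their hair cell calls in all 6 fits that left out 1 HC replicate.

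**Figure D4:**
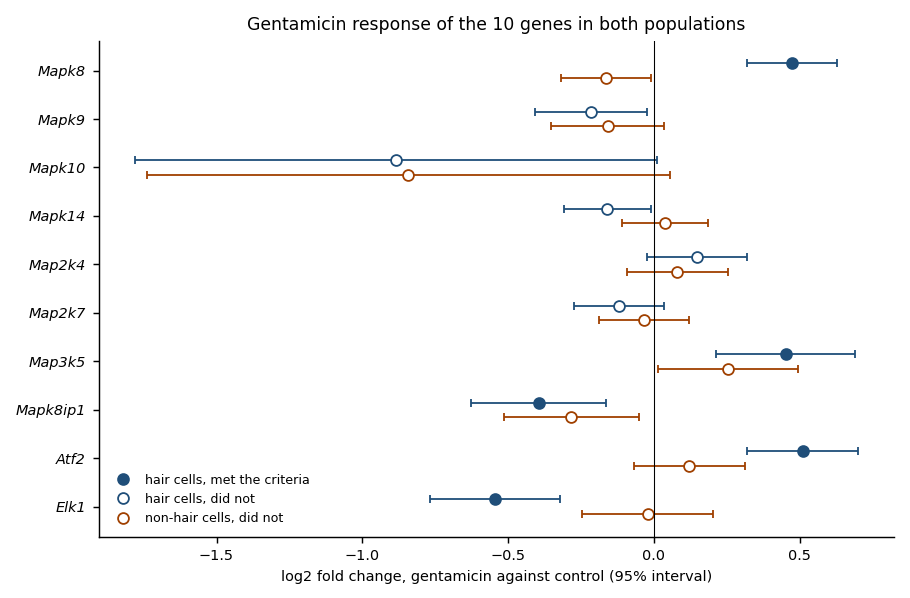
Log2 fold change of gentamicin against control (horizontal axis) with its 95% interval from limma for the 10 genes, in hair cells and in non-hair cells. Filled points met the criteria, which are 5 in hair cells and 0 in non-hair cells, and the widest intervals are those of Mapk10.

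Whether a gene responded differently in the populations was tested as the HC response minus the NHC response, at a limma adjusted p under 0.05. Of the 10 genes 2 passed, Mapk8 and Elk1, where 13.4% of all genes tested did, 6.85% with a higher and 6.57% with a lower response in hair cells. Mapk8 differed by 0.64 on the log2 scale (SE 0.10, adjusted p = 0.00413) and passed in all 12 fits that left out 1 replicate. Elk1 differed by -0.52 (SE 0.14, adjusted p = 0.0357), but in 9 of those 12 fits, which left out any of the HC replicates except gentamicin replicate 3 or any of the NHC replicates except control replicate 1 and gentamicin replicate 3, the adjusted p was between 0.0544 and 0.0851. It was 0.0572 with scaling by total reads, 0.0501 with no minimum of reads, 0.0520 with a replicate block and 0.0907 with a replicate block within each treatment, a setting chosen after seeing the data. Atf2 differed by 0.39 (SE 0.12, adjusted p = 0.0586), with an adjusted p of 0.0435 without NHC gentamicin replicate 2 and 0.0234 with scaling by total reads. For Map3k5 and Mapk8ip1, which met the criteria in hair cells and not in NHC, the difference was 0.20 (95% interval -0.14 to 0.54) and -0.11 (95% interval -0.44 to 0.22).

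Without gentamicin, the populations already differed in most of these genes. At a limma adjusted p under 0.05, 8 of the 10 differed between HC control and NHC control, where 74.1% of all genes tested did. Higher levels in hair cells were found for 2 of the 10 and 31.9% of all genes, and lower levels for 6 of the 10 and 42.2% of all genes. In 8 of the 10 the replicates of the populations did not overlap, as in 79.2% of all genes. Both MAP2K genes were higher in hair cells, Map2k4 by 0.50 (SE 0.08) and Map2k7 by 0.38 (SE 0.07) on the log2 scale. The 3 JNK genes were lower in hair cells, Mapk8 by -0.32 (SE 0.07), Mapk9 by -0.52 (SE 0.09) and Mapk10 by -1.96 (SE 0.41). Map3k5 was also lower there (-0.85, SE 0.11), as were Elk1 (-0.56, SE 0.10) and Atf2 (-0.30, SE 0.09). Mapk14 (-0.07, 95% interval -0.22 to 0.08) and Mapk8ip1 (0.13, 95% interval -0.10 to 0.36) did not pass. The median over all genes was -0.12 here and -0.01 with median-of-ratios scaling, under which Atf2 no longer passed (-0.18) and Mapk14 took the opposite sign (0.05).

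Levels were compared between the genes as RPKM, computed from the recovered reads, the exon length and the total of reads on genes. In HC control the highest were Mapk8ip1 at 38.7 ± 2.75 (SD, n = 3) and Map2k7 at 35.9 ± 2.29 (SD, n = 3), whose replicates overlapped. Map2k4 followed at 24.3, Mapk14 at 14.97, Mapk9 at 8.91, Atf2 at 5.86, Elk1 at 5.39, Mapk8 at 3.51, Map3k5 at 1.10 and Mapk10 at 0.394, and these neighbours did not overlap. After gentamicin Mapk8 (5.25) stood above Elk1 (3.90) in hair cells, in the reverse of the control order. Atf2 (9.002) and Mapk9 (8.21) overlapped there, as did Map2k7 (35.3) and Mapk8ip1 (31.4). In NHC control the order was again led by Mapk8ip1 (36.0), Map2k7 (28.02) and Map2k4 (17.5), and Map2k4 overlapped with Mapk14 (16.0), Elk1 (8.21) with Atf2 (7.39), and Map3k5 (2.16) with Mapk10 (1.86). In NHC gentamicin Mapk8ip1 (30.0) overlapped with Map2k7 (27.8) and Elk1 (8.23) with Atf2 (8.19), and Mapk10 (1.09) was lowest. These values use all exon bases of a gene. On the longest transcript the HC control order was the same. In HC gentamicin, however, Mapk8ip1 then ranked above Map2k7 and Atf2 above Mapk14. Atf2 ranked above Elk1 in both NHC groups, and Mapk10 above Map3k5 in NHC control.

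The rest of the pathway was read from a list of 57 further genes, all of which were tested. In hair cells 22 of the 57 changed by the same criteria, 8 up and 14 down, which is 38.6% beside 27.5% of all genes, and their median log2 fold change was -0.16 beside -0.09. With scaling by total reads 19 changed, 11 up and 8 down, so the balance of directions in this list depends on the scaling. The same holds over all genes, where 46.1% of the changed genes were up as reported and 63.6% with scaling by total reads. In NHC 2 of the 57 changed, both down, which is 3.51% beside 5.44% of all genes, and the response differed between the populations for 10 of the 57, 17.5% beside 13.4% of all genes. Between the control populations 41 of the 57 differed, 10 higher and 31 lower in hair cells. That is 71.9% beside 74.1% of all genes, of which 31.9% were higher and 42.2% lower.

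By role, the counts in hair cells are to be read beside the 12.7% of all genes that rose and the 14.8% that fell, and the roles were not tested against each other. Of 15 further MAP3K genes 2 rose and 6 fell, of 7 MAP4K genes 1 rose and 3 fell, and of 8 adaptors 2 rose and 1 fell. Of 10 further nuclear targets 3 rose and 3 fell, and of 7 kinases activated by MAP kinases 1 fell. None of the 3 other p38 genes, the 2 other MAP2K genes or the 5 other scaffold genes met the criteria, which rest on 1 spread shared by all 4 groups. In limma 1 p38 gene and 1 MAP2K gene had an unadjusted p under 0.05, as did 7104 of the 16077 genes tested. Treated and control hair cells did not overlap in 2 of these p38 genes, 2 of the MAP2K genes and 1 of the scaffold genes, beside 54.8% of all genes.

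Jun, the JNK target c-Jun, had the highest log2 fold change of the list in hair cells. Its normalized read number was 310, 391 and 404 in HC control and 838, 1201 and 987 in HC gentamicin, a log2 fold change of 1.45 (SE 0.31, limma adjusted p = 0.00536). In NHC it read 537, 1040 and 950 in control and 431, 437 and 943 after gentamicin. All treated hair cell replicates were above their controls, while the NHC groups overlapped. The NHC log2 fold change was -0.53, and without NHC gentamicin replicate 3 it was -0.90 and met the criteria. Jun was highest in the NHC replicates with neuron sums of 1256, 1627 and 1721. The part of neurons in these values, and in the difference between populations given below, was not tested.

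The other ternary complex factor genes, Elk3 and Elk4, fell with Elk1 in hair cells. Elk3 read 32.0, 34.4 and 30.7 in HC control and 17.1, 20.1 and 16.5 in HC gentamicin (log2 fold change -0.86, SE 0.10, limma adjusted p = 2.05e-04). Elk4 read 16.7, 19.4 and 18.1 in control and 12.6, 11.4 and 11.9 after gentamicin (-0.59, SE 0.11, limma adjusted p = 0.00258). Neither gene overlapped between the hair cell groups, and both had been lower in HC control than in NHC control, by -0.66 and -0.49. In NHC their log2 fold changes were -0.0070 and -0.0038, and the sign of both turned with scaling by total reads.

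Of the MAP3K genes, Map3k6, which encodes ASK2, the partner kinase of ASK1, rose in hair cells. It read 3.04, 3.74 and 3.76 in HC control and 5.99, 5.90 and 5.17 in HC gentamicin (0.70, SE 0.15, limma adjusted p = 0.00562). Map3k3 (MEKK3) fell by 0.85 on the log2 scale (SE 0.12, limma adjusted p = 4.14e-04) and Map3k4 (MEKK4) by 0.67 (SE 0.10, limma adjusted p = 6.23e-04). Map3k1 (MEKK1) fell by 0.53 (SE 0.15, limma adjusted p = 0.0208), but this call was lost without HC control replicate 2 (-0.47), HC control replicate 3 (-0.54) or HC gentamicin replicate 2 (-0.42). The related Map3k2 (MEKK2), named after its value was seen, had a log2 fold change of -0.10 (95% interval -0.32 to 0.12), and its replicates overlapped.

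The remaining genes with the largest changes also fell. Mknk2, a kinase that phosphorylates the translation factor eIF4E, fell by 0.74 (SE 0.09, limma adjusted p = 2.11e-04) and the MAP4K gene Mink1 by 0.64 (SE 0.10, limma adjusted p = 6.76e-04). Mef2c, a p38 target, fell by 0.83 (SE 0.22, limma adjusted p = 0.0156) from a low level, with 4.95, 5.75 and 2.84 in HC control and 2.77, 2.42 and 2.14 in HC gentamicin. Its call was lost without HC control replicate 1 (-0.73), HC control replicate 2 (-0.63) or HC gentamicin replicate 3 (-0.74), and with the HC groups fitted alone. In NHC control Mef2c was much higher, at 29.4, 35.7 and 28.6. Mknk2 and Map3k3 too were lower in HC control than in NHC control, by -0.44 and -1.25, beside the lower supporting cell, mesenchyme and glia markers of treated hair cells, whose part was not tested. Of these lists, mesenchyme and glia were lower in HC control than in NHC. The supporting cell sum was higher in HC control (1508–1731) than in NHC (415–1147).

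In NHC the genes that fell were Map3k13, the kinase LZK, with -0.56 (SE 0.15, limma adjusted p = 0.110), and Mapk8ip3, the scaffold JIP3, with -0.50 (SE 0.10, limma adjusted p = 0.0665). Map3k13 read 16.3, 21.4 and 21.7 in control and 13.5, 10.95 and 16.0 after gentamicin, and lost its call without NHC control replicate 2 (-0.50), NHC control replicate 3 (-0.49) or NHC gentamicin replicate 2 (-0.42). Mapk8ip3 read 217, 272 and 223 in control and 169, 153 and 181 after gentamicin. Both were lowest in NHC gentamicin replicate 2, the replicate with the lowest neuron sum, and the part of neurons in these values was not tested.

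**Figure D5:**
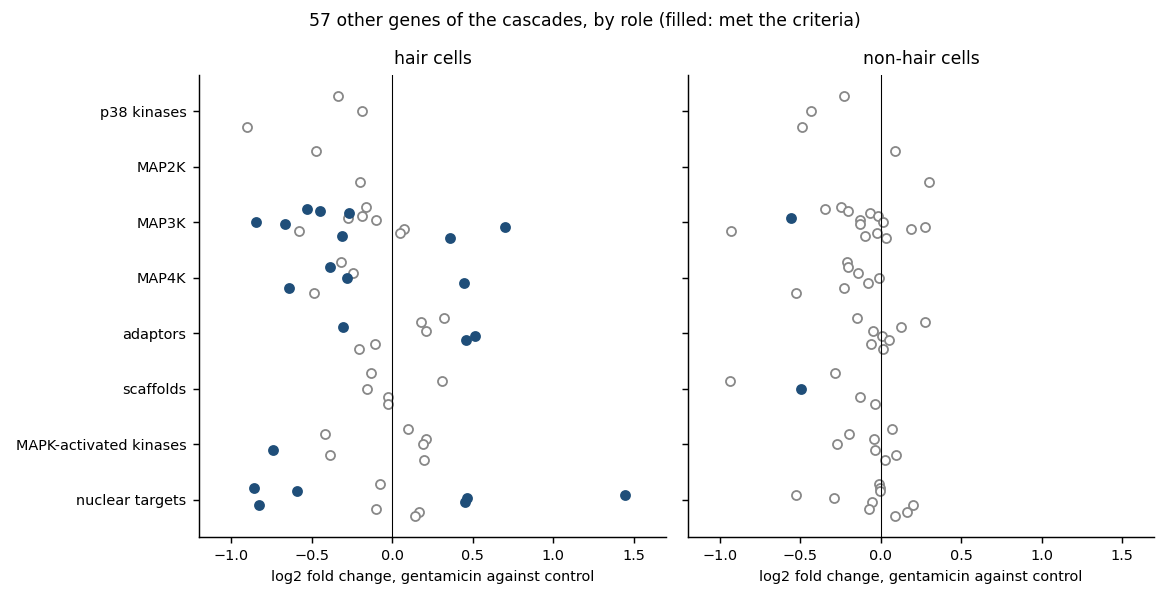
Log2 fold change of gentamicin against control (horizontal axis) for 57 other genes of the cascades, grouped by role on the vertical axis, in hair cells (left) and non-hair cells (right), with 1 point per gene. Filled points met the criteria, 22 in hair cells and 2 in non-hair cells, and the point at 1.45 in hair cells is Jun.

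Over the 12 replicates the log2 levels most like that of Mapk8 were those of Tgm1 (Pearson r = 0.976), Taf1d (0.945) and Lysmd3 (0.942). Those most like Mapk9 were D930048N14Rik (0.986), Ppp1r14c (0.984) and Slc27a1 (0.983), and those most like Mapk14 were Entpd2 (0.954), E2f5 (0.951) and Trpm3 (0.946). For Mapk10 they were Dennd2d, Syt3 and Edil3, with r of 0.996, 0.995 and 0.995. These values describe 12 replicates that fall into 2 populations, so genes that differ between HC and NHC can correlate for that reason alone.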

How the data were processed

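RNA sequencing was performed by the authors on poly(A) RNA from sorted cells, with trimmed reads aligned to mm10 by TopHat 2 in PartekFlow. The normalized read score deposited by the authors was used as found, 1 value per gene and replicate. The methods speak of RPKM, but the deposited scores show no division by gene length: with the offset of 1 taken off and divided by each replicate's smallest step, 74.3–75.9% of values below 50 reads came out whole within 0.02. These recovered reads gave the depth, and their number limits the precision for scarce genes. Genes with at least 100 recovered reads over 12 replicates were tested.

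Log2 scores of all 4 groups were fitted in 1 model with limma 3.58.1 in R 4.3.3, with a variance trend and Benjamini-Hochberg adjustment over 16077 genes. Fold changes are on the scale of score with its offset of 1, which understates changes of scarce genes. Shares were tested with an exact permutation test in scipy 1.17.1 (Python 3.11.15). Positions and exon lengths came from GENCODE M21 (GRCm38), promoters from RefSeq. The paper calls the replicates biological, but nothing gives the animals behind each. Replicate numbers come from the column headings. HC and NHC controls of the same number deviated together (correlations 0.22, 0.32 and 0.20 over genes), but whether they came from the same cultures is not given. The replicate block changed no member's call between the control populations.

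The members and lists were chosen with earlier results of these data known. All 10 members are named, then the called genes with the 10 largest changes of the wider list in each gentamicin contrast, and the 3 genes most like each MAP kinase. B230120H23Rik stands for Zak. Alternatives were an offset of 0.1, a minimum of 1000 reads or none, scaling by total reads or median of ratios, compared groups alone, the replicate number as a block, each replicate left out, adjusted p only, no variance trend and the longest transcript as length. Leaving out both HC replicates numbered 2, for their marker sums, and a replicate block within each treatment were added after seeing the data.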

Additional observations from a re-analysis of the deposited data

Results flagged for a closer look

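The responses of hair cells and non-hair cells to gentamicin differed, at a limma adjusted p under 0.05, for 2 of the 10 genes and 10 of the 57 further pathway genes. Of all genes tested 13.4% passed, beside 17.5% of the 57. The HC response minus the NHC response was 0.64 on the log2 scale for Mapk8 and -0.52 for Elk1. Among nuclear targets it was 1.97 for Jun, 0.76 for Jund, -0.85 for Elk3 and -0.59 for Elk4. Among upstream kinases it was -0.86 for Map3k3, -0.54 for Map3k4 and 0.53 for Map4k5. It was -0.43 for the adaptor Tab1, 0.50 for the adaptor Tab3 and -0.71 for the kinase Mknk2. In fits that left out 1 replicate, the difference passed in all 12 for Mapk8, Jun, Elk3, Map3k3 and Mknk2, in 6 of 12 for Map3k4, in 5 of 12 for Elk4 and in 3 of 12 for Elk1. Jund, Map4k5, Tab1 and Tab3, named after their values were seen because their differences passed, did so in 7, 12, 2 and 4 of the 12 fits. With both HC replicates numbered 2 left out, a setting chosen after seeing the data, Mapk8, Elk3 and Map4k5 still passed. In that fit the other 9 had adjusted p from 0.0568 for Mknk2 (-0.65) to 0.176 for Tab3 (0.41), with 0.0907 for Jun (1.89) and 0.0638 for Map3k3 (-0.78), and kept their signs.
With the replicate number as a block within each treatment, also chosen after seeing the data, 8 of the 12 still passed, and the adjusted p was 0.0907 for Elk1, 0.0724 for Elk4, 0.0696 for Tab1 and 0.0578 for Tab3.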

How the results depend on the processing

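Mapk8, Atf2 and Elk1 met the criteria in hair cells under every alternative run, as did Mapk8 for the difference between populations. With 1 replicate left out, the members called numbered 4 to 6 in hair cells, 0 to 2 in NHC and 1 to 2 for the difference, and the wider list 15 to 21 in hair cells, 1 to 8 in NHC and 5 to 12 for the difference. Over all genes such fits gave 3288 to 4133 in hair cells, 411 to 1570 in NHC and 1163 to 2378 for the difference. With both HC replicates numbered 2 left out, chosen after seeing the data, hair cells gave 2455 genes, 3 members and 11 of the wider list, and the difference 492, 1 and 2, with fewer replicates in the fit. Fitted alone, the 2 HC groups gave 5061 genes, 6 members and 26 of the wider list, against 4418, 5 and 22 as reported. The 2 NHC groups alone gave 383 genes and 1 of the wider list, against 875 and 2 as reported. At an adjusted p only, NHC gave 55 genes and 0 of the wider list. The members that passed for the difference numbered 1 with no minimum of reads.

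Between control and gentamicin, same-numbered replicates had correlations of their deviations of 0.04, 0.05 and 0.04 in hair cells and 0.21, -0.23 and 0.68 in NHC, and between HC and NHC after gentamicin of 0.38, -0.04 and -0.02. In these comparisons the correlations were near 0 or differed between the numbers, unlike between the control populations. With 3 replicates per group they cannot show whether same-numbered replicates are paired. With the replicate block 1 member passed for the difference and 4 of the wider list in NHC, and in hair cells 5 members and 22 of the wider list were called. With the block within each treatment 1 member passed for the difference and 8 members between the control populations. The difference for Elk1 was the 1 call of a member that either block changed.

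None of the values that turned in sign had passed its test as reported. With scaling by total reads the NHC log2 fold changes were 0.000924 for Elk1, 0.0160 for Elk3 and 0.0188 for Elk4, and the difference was 0.0162 for Mapk9 and 0.00604 for Mapk10. With median-of-ratios scaling Mapk14 between the control populations was 0.0533 and Tab1 0.120. Without both HC replicates numbered 2 the difference was 0.00957 for Mapk9 and 0.0945 for Mapk10. With 1 replicate left out, the NHC value ranged from -0.109 to 0.0496 for Elk1, -0.0969 to 0.0640 for Elk3, -0.0831 to 0.1002 for Elk4, -0.0677 to 0.0219 for Map2k7, -0.0418 to 0.0731 for Tab3, -0.0914 to 0.00447 for Mknk2 and -0.0798 to 0.0981 for Map3k3. The difference ranged from -0.131 to 0.0245 for Mapk9, -0.439 to 0.416 for Mapk10 and -0.00589 to 0.132 for Map2k4, and Map3k4 between the control populations from -0.0336 to 0.0947 and Tab1 from -0.0327 to 0.0139. The cause was not tested.

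Of the 10 genes, Mapk10 and Map3k5 had the fewest reads in hair cells, at most 129 and 285 per replicate, and Mef2c and Map3k6 of the wider list had at most 111 and 121.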
